A study of Hakea laurina with 6 samples.

Results

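Purple acid phosphatase 10 (PAP10) transcripts were examined in the roots of *Hakea laurina*, a woody plant of the Proteaceae that forms cluster roots. The 6 contigs described here are TRINITY_DN1306_c0_g1, TRINITY_DN3420_c0_g1, TRINITY_DN1270_c0_g1, TRINITY_DN6749_c0_g1, TRINITY_DN8582_c0_g1 and TRINITY_DN6908_c0_g1, each named by its cluster (DN), component (c) and gene (g) in the Trinity assembly, and the prefix is left out below. They belong to the 10 contigs annotated PAP10 (best Arabidopsis match AT2G16430) among 7819 annotated contigs, out of 183999 contigs in the count table. These 7819 are the contigs that the authors had selected as differing between the root types, and no others carried an annotation here. Lists of annotated contigs below therefore leave out contigs that were not selected. The 6 were taken as a given list from among the selected contigs. Their root type difference was therefore what chose them, and it is given below as a description, with no p-value.

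Purple acid phosphatases are metal-containing enzymes that release phosphate from organic phosphate esters, and plants carry a family of them. In Arabidopsis, PAP10 is a secreted enzyme that stays associated with the root surface and is induced by phosphate starvation. Cluster roots are dense groups of short, hairy rootlets that release carboxylates and acid phosphatases and are formed by many Proteaceae in phosphorus-poor soil.

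RNA-Seq was performed on 3 libraries of mature cluster roots (MCR), which carried fully elongated rootlets, and 3 libraries of tips of cluster-bearing lateral roots (TCR). Both root types came from unmodified plants about 3 yr old that were grown in hydroponics at low P, with 6.4 μM phosphate added every few months, so that no P-sufficient root stands beside them. The sources do not say whether the libraries came from separate plants, so every p-value measures only the spread between these libraries, which may be technical. The titles of the samples give the root types used here, whereas the tissue label of every library names the other root type. If that label were right, every direction below would be the opposite. The estimated counts summed to 15718871, 16444469 and 19119494 in MCR1, MCR2 and MCR3, and to 13583740, 16622567 and 15649283 in TCR1, TCR2 and TCR3.

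The root types were checked with markers of dividing cells and the root meristem. Of 18 contigs annotated with such markers, 12 were called lower in MCR and 0 higher by the edgeR quasi-likelihood test (adjusted p below 0.05 and absolute log2 fold change of 1 or more). Over all annotated contigs, 31.7% were called lower and 10.2% higher. Of the 18, 4 had fitted values above 0, were not called and were at 0 CPM in MCR3 and TCR3. Of the 28 symbols looked for, 16 were annotated. The summed level of the 18 was 58.8 to 88.5 CPM (counts scaled to a common library size) in MCR and 444 to 796 CPM in TCR. PLT1, a regulator of the root stem cell niche with the lowest fitted value of the 18, was at 0.0608 to 0.0679 CPM in MCR and at 5.55 to 38.8 CPM in TCR. The libraries titled as root tips were thus the ones with the higher summed level of these meristem markers. MCR3 and TCR3 stood apart from the other libraries of their root types. Over the 49813 contigs tested the rank correlation (Spearman) of MCR3 was 0.871 with TCR3, 0.626 with MCR1 and 0.515 with MCR2. That of TCR3 was 0.829 with TCR1 and 0.826 with TCR2, against 0.953 between TCR1 and TCR2. Each result is therefore given below by library.

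The 6 PAP10 contigs together were more abundant in MCR than in TCR. Their summed level was 5206, 7560 and 7211 CPM in MCR1, MCR2 and MCR3, against 409, 433 and 319 CPM in TCR1, TCR2 and TCR3. The mean was 6659 ± 1270 CPM in MCR and 387 ± 60.1 CPM in TCR (SD, n = 3 each), a ratio of 17.2. In estimated counts they took 0.488%, 0.737% and 0.620% of the MCR libraries and 0.0421%, 0.0425% and 0.0374% of the TCR libraries. Each of the 6 contigs passed the filter on low values and was higher in every MCR library than in any TCR library, as were 10.7% of all contigs tested. Because the contigs were chosen on this contrast, nothing is read from that count. In root tissue with a mix of cell types, more cells of a type and more RNA per cell cannot be told apart.

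The contigs were split by their mean level in TCR into a pair above 10 CPM there and 4 below it, here called low in TCR. That limit of 10 CPM was set after the values were seen, so the unlike TCR levels of the sets follow from it. The pair summed to 3646, 4086 and 4167 CPM in MCR against 393, 421 and 310 CPM in TCR, and the ratio of the means was 10.6. The 4 others summed to 1560, 3474 and 3044 CPM in MCR against 16.7, 11.6 and 8.55 CPM in TCR, and the ratio of the means was 219. Levels of different contigs are not ranked, because no contig lengths were used here and longer contigs collect more reads.

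**Figure D1:**
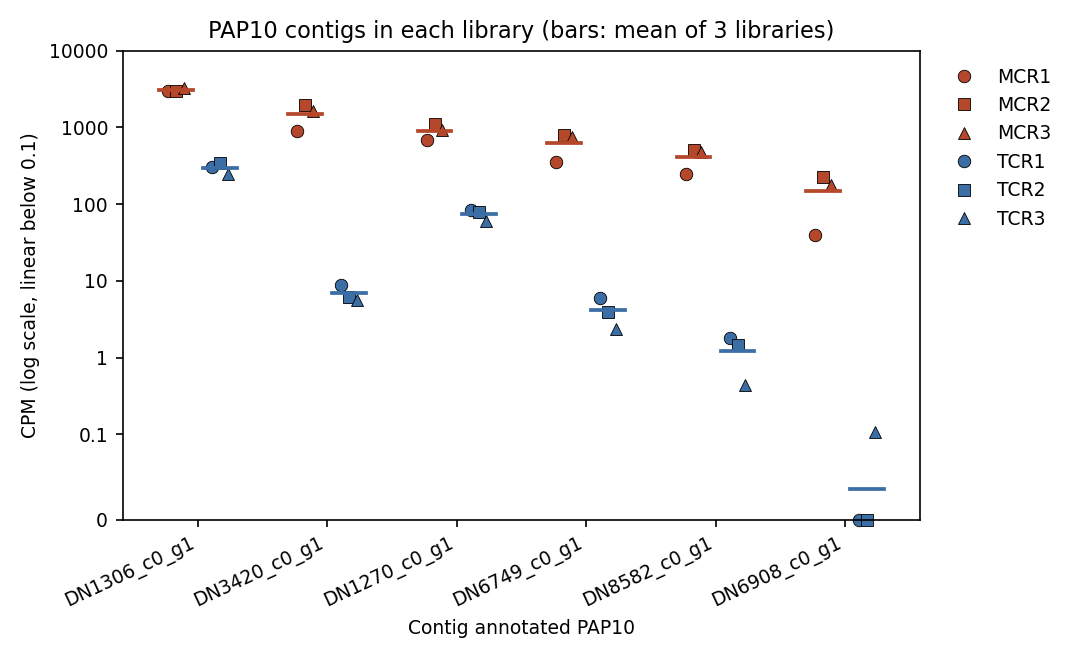
Level of each of the 6 PAP10 contigs in each library, in CPM on a log axis that is linear below 0.1, with 3 MCR libraries on the left and 3 TCR libraries on the right of each contig and horizontal bars at the means. All MCR points lie above all TCR points of the same contig, and DN6908_c0_g1 is at 0 in TCR1 and TCR2.

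DN1306_c0_g1, of the pair, showed nearly the same level in each MCR library. It was measured at 2960, 2991 and 3233 CPM in MCR1, MCR2 and MCR3, against 307, 342 and 250 CPM in TCR1, TCR2 and TCR3. The means were 3062 ± 149 CPM in MCR and 300.0 ± 46.6 CPM in TCR (SD, n = 3 each), 10.2 times higher in MCR, and the fitted log2 fold change was 3.35. Its lowest MCR library was 8.65 times its highest TCR library. Its coefficient of variation (SD over mean) among MCR libraries was 4.87%, against a median of 31.6% over the 10168 contigs with a mean of 10 CPM or more in MCR, and only 1.76% of those varied less. In TCR it was not unusual, with 15.5% against a median of 22.3%.

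DN1270_c0_g1 was the other contig of the pair. It had 686, 1095 and 934 CPM in MCR1, MCR2 and MCR3, and 85.2, 78.7 and 60.3 CPM in TCR1, TCR2 and TCR3. The means of 905 ± 206 CPM in MCR and 74.7 ± 12.9 CPM in TCR (SD, n = 3 each) gave a ratio of 12.1, and the fitted log2 fold change was 3.60. MCR1 was the lowest of the MCR libraries, and it was still well above the TCR libraries.

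Among the 4 contigs low in TCR, DN3420_c0_g1 had 911, 1944 and 1626 CPM in MCR1, MCR2 and MCR3, against 8.95, 6.19 and 5.61 CPM in TCR1, TCR2 and TCR3. Its means were 1494 ± 529 CPM in MCR and 6.91 ± 1.78 CPM in TCR (SD, n = 3 each), and it was 216 times higher in MCR (fitted log2 fold change 7.75). The TCR values rested on 125, 101 and 103 counts, so that its low level there was measured and not at the floor. This contig therefore combined a high level in MCR with a low, but countable, level in TCR.

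DN6749_c0_g1 had 360, 796 and 756 CPM in MCR1, MCR2 and MCR3, and 6.01, 3.98 and 2.40 CPM in TCR1, TCR2 and TCR3. The means were 637 ± 241 CPM in MCR and 4.13 ± 1.81 CPM in TCR (SD, n = 3 each), with a ratio of 154 and a fitted log2 fold change of 7.27. MCR2 and MCR3 lay close together, and MCR1 was lower than both.

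DN8582_c0_g1 repeated this order among MCR libraries, with 248, 509 and 486 CPM in MCR1, MCR2 and MCR3, against 1.79, 1.47 and 0.435 CPM in TCR1, TCR2 and TCR3. The means were 414 ± 144 CPM in MCR and 1.23 ± 0.708 CPM in TCR (SD, n = 3 each), with a ratio of 336 and a fitted log2 fold change of 8.40. The TCR values rested on 25, 24 and 8 counts, and counting error alone leaves the ratio of the pooled counts, scaled to library size, between 276 and 473 (95% exact interval).

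DN6908_c0_g1 had almost no counts in TCR. It was measured at 40.3, 225 and 176 CPM in MCR1, MCR2 and MCR3, and at 0, 0 and 0.109 CPM in TCR1, TCR2 and TCR3. These values came from 594, 3602 and 2899 counts in MCR and from 0, 0 and 2 counts in TCR. The MCR mean was 147 ± 95.6 CPM (SD, n = 3), the widest relative spread of the 6 contigs in MCR. The ratio of the pooled counts, scaled to library size, was 3656 with a 95% exact interval of 1012 to 30192, which covers counting error only. The fitted log2 fold change of 11.58 depends on the prior count and is not a measure of size, since a prior count of 2 in place of the default lowered it to 9.81, and without TCR3, the only TCR library with a count, it was 14.17.

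The fold changes moved with the scaling of the libraries, and less so once the shift of all contigs was taken off. The median log2 fold change over all contigs tested was 0.57 with TMM normalization, 0.84 after scaling by RLE size factors and 0.37 when only library sizes were used. Relative to that median, DN1306_c0_g1 stood at 2.78, 2.81 and 2.80 and DN3420_c0_g1 at 7.18, 7.22 and 7.21. The median of the 6 contigs was 7.51, against 1.904 over the 7819 annotated contigs and 0.57 over all contigs tested, and the authors' selection on this contrast bears on both of the first values.

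The make-up of the PAP10 counts within a library does not depend on the scaling, and it differed between the root types. The shares restate the unlike folds of the contigs given above, so this difference is no separate result. DN1306_c0_g1 supplied 56.9%, 39.6% and 44.8% of the counts of the 6 contigs in MCR1, MCR2 and MCR3, against 75.1%, 79.1% and 78.4% in TCR1, TCR2 and TCR3. The mean share was 47.1% ± 8.87 in MCR and 77.5% ± 2.146 in TCR (SD, n = 3 each). DN1270_c0_g1 supplied 13.2%, 14.5% and 12.96% in MCR and 20.8%, 18.2% and 18.9% in TCR. Both contigs of the pair thus took a smaller part of the counts in MCR than in any TCR library, although both were higher in MCR in CPM.

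The 4 contigs low in TCR were set apart by that level, so their smaller share there follows from the split. They made up 30.0%, 45.9% and 42.2% of the counts of the 6 contigs in MCR1, MCR2 and MCR3, and 4.09%, 2.69% and 2.68% in TCR1, TCR2 and TCR3. The exact 95% intervals were 29.6 to 30.3% in MCR1 and 3.59 to 4.64% in TCR1, the libraries of each root type with the fewest counts, and these intervals cover counting error only. DN3420_c0_g1 alone had a mean share of 21.9% ± 4.15 in MCR and 1.79% ± 0.378 in TCR (SD, n = 3 each). DN6749_c0_g1 averaged 9.31% ± 2.07 in MCR and 1.05% ± 0.375 in TCR. DN8582_c0_g1 averaged 6.08% ± 1.13 in MCR and 0.305% ± 0.153 in TCR. DN6908_c0_g1 took 0.774%, 2.97% and 2.44% in MCR, and its 0 of 5720 counts in TCR1 and 0 of 7060 in TCR2 allow up to 0.0645% and 0.0522% (exact 95% limit).

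**Figure D2:**
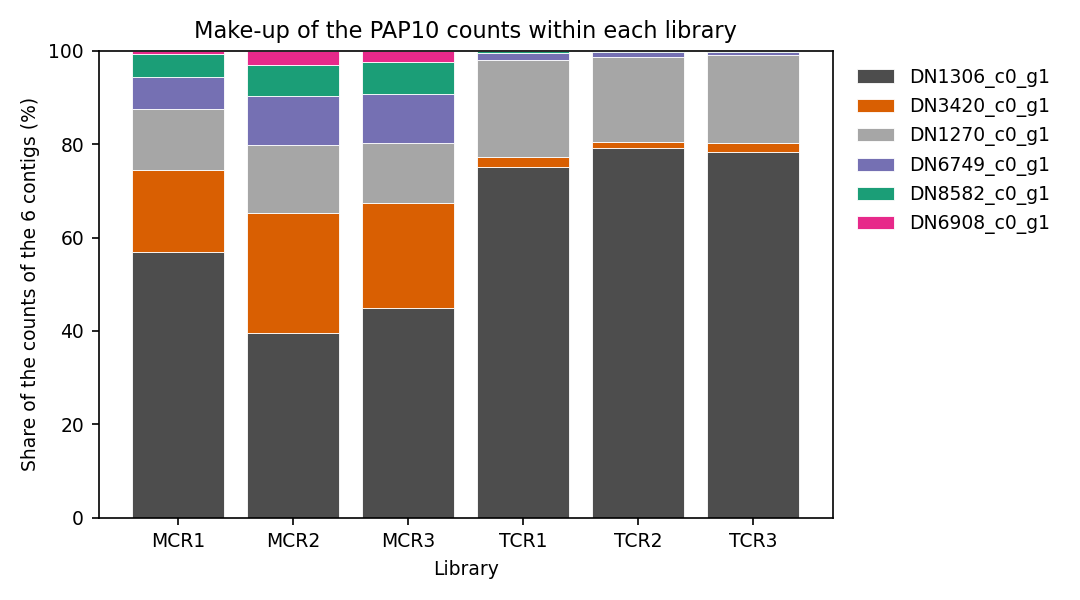
Share of each contig in the estimated counts of the 6 PAP10 contigs, in percent of each library, with MCR libraries on the left and TCR libraries on the right. DN1306_c0_g1 and DN1270_c0_g1, in grey, fill almost the whole TCR bars, and the 4 coloured contigs take 30.0 to 45.9% of the MCR bars.

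The contigs also differed in how they varied among MCR libraries. MCR1 was the lowest MCR library for all 6 contigs. The ratio of MCR1 to the mean of MCR2 and MCR3 was 0.951 for DN1306_c0_g1 and 0.676 for DN1270_c0_g1. It was 0.510 for DN3420_c0_g1, 0.464 for DN6749_c0_g1, 0.4995 for DN8582_c0_g1 and 0.201 for DN6908_c0_g1. Over the 10168 contigs with a mean of 10 CPM or more in MCR the median of this ratio was 1.02 and its quartiles were 0.734 and 1.35. The 4 contigs low in TCR lay between the percentiles 3.71 and 12.3 of these contigs, DN1270_c0_g1 at 21.0 and DN1306_c0_g1 at 44.05.

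Summed over the 4 contigs low in TCR, the level in MCR1 was 0.479 times the mean of MCR2 and MCR3, and over the pair it was 0.884 times. MCR3, which resembled TCR3 over all contigs, did not stand apart for the PAP10 contigs, because its level was between 0.785 and 1.08 times that of MCR2 for each of the 6. Among MCR libraries, the summed level of root hair markers was also lowest in MCR1, but different contigs carried most of it in MCR2 and in MCR3. The summed level of the 4 annotated root hair contigs was 38.004, 344 and 404 CPM in MCR1, MCR2 and MCR3, and 15.2, 13.6 and 37.5 CPM in TCR1, TCR2 and TCR3. Most of it came from LRX1, a cell wall protein of root hairs, in MCR2 (269 CPM) and from RSL2, a regulator of root hair growth, in MCR3 (254 CPM). LRX1 was at 0.243 CPM in MCR3, and RSL2 was at 14.3 CPM in MCR2. Of the 12 root hair symbols looked for, 8 were not among the annotated contigs. Of the 4 contigs, 0 were called higher in MCR and 1, MRH6, at 0 CPM in every MCR library, was called lower (edgeR), beside 10.2% higher and 31.7% lower among all annotated contigs, and the part of root hairs in the PAP10 levels was not tested. Of 5 contigs annotated with xylem markers 2 were called lower in MCR and 0 higher. The other 3 had fitted values above 0 and were not called, and in MCR3 they were at 0.0608, 0 and 0 CPM. The median log2 fold change of the 5 was 2.84, which was the value of 1 of these 3. The summed level of the 5 was 65.1 to 146 CPM in MCR and 475 to 528 CPM in TCR, carried by the 2 called lower, 1 contig each of XCP1 and CESA4. The single contig of green tissue, CAB1, was at 0.374 to 1.02 CPM in MCR and 9.19 to 20.0 CPM in TCR. The part of these tissues in the PAP10 levels was not tested.

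**Figure D3:**
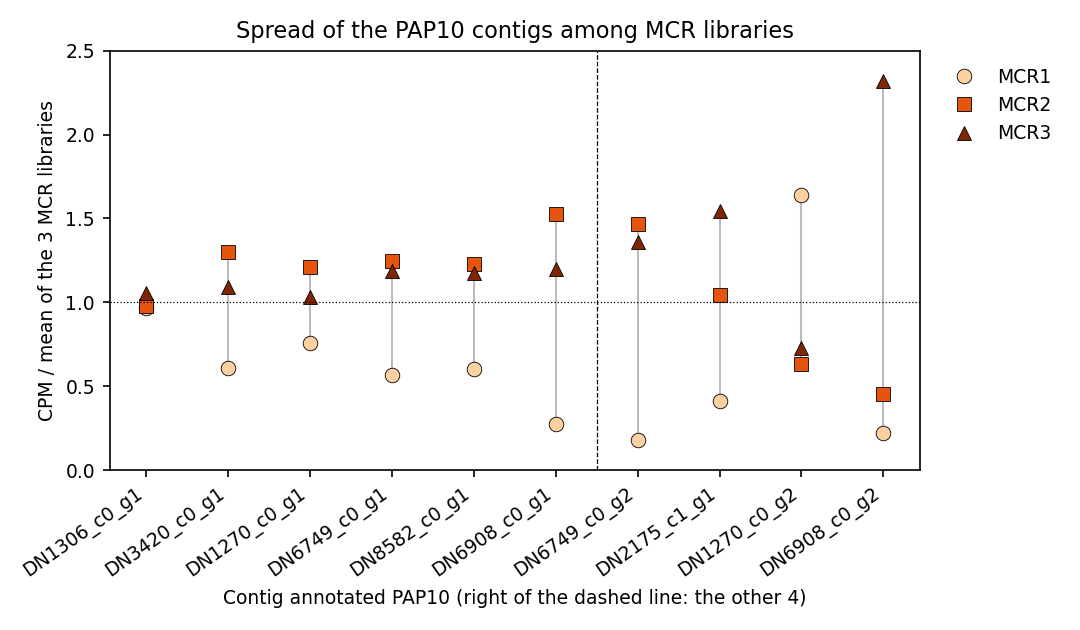
Level in MCR1, MCR2 and MCR3 divided by the mean of these libraries (y axis, no unit) for the 6 PAP10 contigs and, right of the dashed line, the other 4 contigs annotated PAP10. The points of DN1306_c0_g1 coincide near 1, MCR1 is lowest for the 6, and DN1270_c0_g2 alone has MCR1 as its highest library.

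Profiles over the 6 libraries were compared between the PAP10 contigs. Likeness was measured as the root mean square difference of log2(CPM + 0.5), each profile centred on its own mean, where 0 means that profiles are parallel, and these are descriptions over 6 libraries that share the root type difference. DN1306_c0_g1 and DN1270_c0_g1 differed by 0.234. The 4 contigs low in TCR differed among themselves by 0.318 to 0.678, the closest being DN3420_c0_g1 and DN6749_c0_g1. Between the pair and the 4 contigs the difference was 1.78 to 2.35, which follows from the root type folds that set them apart and is no further evidence of 2 sets.

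Among the 4091 annotated contigs with a mean of 10 CPM or more in a root type, the closest to DN1306_c0_g1 were DN77286_c0_g1, annotated as adenine nucleotide alpha hydrolases-like (0.0899), DN10613_c0_g1, of the 6-phosphogluconate dehydrogenase family (0.0926), and DN4126_c0_g1, of unknown function (0.128). DN1270_c0_g1 was closest to DN11960_c0_g1, a kinase interacting (KIP1-like) protein (0.217), then to DN1306_c0_g1 and to DN2698_c0_g1, cinnamyl alcohol dehydrogenase 9 (0.241). DN3420_c0_g1 was closest to DN5884_c0_g1, a Ran BP2/NZF zinc finger-like protein (0.258), followed by DN6749_c0_g1 and DN8582_c0_g1 (0.328). DN3420_c0_g1 was in turn the closest to DN6749_c0_g1 and to DN8582_c0_g1, and the second closest to both was DN959_c0_g4, of the acetamidase/formamidase family (0.342 and 0.396). The third contig for DN6749_c0_g1 was DN16295_c0_g1, annotated as phosphate transporter 1;5 (0.373), and for DN8582_c0_g1 it was DN5884_c0_g1 (0.408). DN6908_c0_g1 was closest to DN5884_c0_g1 (0.386), DN6749_c0_g2, another PAP10 contig (0.411), and DN4371_c0_g1, annotated PAP24 (0.418).

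The other 4 contigs annotated PAP10 did not all resemble these 6. They too had been selected by the authors on this contrast, so the tests on them are not independent evidence of a direction. DN2175_c1_g1, which is alone among the 4 in sharing no assembly cluster with a listed contig, had 710, 1800 and 2671 CPM in MCR1, MCR2 and MCR3, and 104, 114 and 248 CPM in TCR1, TCR2 and TCR3. It was higher in all MCR libraries than in any TCR library (log2 fold change 3.47, adjusted p = 0.0177 in the edgeR quasi-likelihood test). The call was lost without TCR1 (adjusted p = 0.107), without TCR2 (0.1002) and without MCR2 (0.0595).

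DN6749_c0_g2 rose in MCR, with 20.8, 173 and 160 CPM in MCR1, MCR2 and MCR3, against 0.0716, 0.123 and 0 CPM in TCR1, TCR2 and TCR3 (edgeR adjusted p = 0.00527). The TCR values rested on 1, 2 and 0 counts. The ratio of the pooled counts, scaled to library size, was 1959 with a 95% exact interval of 670 to 9500, for counting error only. MCR1 was far below MCR2 and MCR3.

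DN6908_c0_g2 had 10.1, 20.8 and 106 CPM in MCR1, MCR2 and MCR3, and 0.644, 0.123 and 1.09 CPM in TCR1, TCR2 and TCR3, and rose in MCR with a log2 fold change of 6.18 (edgeR adjusted p = 0.0233). Its MCR3 level was 5.10 times that of MCR2, where the same ratio was 0.785 to 1.08 in the 6 contigs. It was no longer called without TCR1 (adjusted p = 0.127), TCR2 (0.0939) or TCR3 (0.0658).

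DN1270_c0_g2 was the only one of the 10 PAP10 contigs with a lower mean in MCR. It had 170, 66.0 and 75.7 CPM in MCR1, MCR2 and MCR3, and 247, 297 and 178 CPM in TCR1, TCR2 and TCR3, and its highest MCR library was just below its lowest TCR library, as was so for 20.3% of all contigs tested. The log2 fold change of -1.21 did not pass the test (edgeR adjusted p = 0.145). It was called lower with the replicate number as a block (adjusted p = 0.00481), with every contig that had a read kept (0.0163) and without MCR1 (0.0432). MCR1 was its highest MCR library, at 2.40 times the mean of MCR2 and MCR3, the reverse of the order in the 6 contigs.

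The 2 contigs of this assembly component, DN1270_c0_g1 and DN1270_c0_g2, therefore divided their joint counts differently in the root types. Which of the 2 is the more abundant in a root type is not read from this, as no contig lengths were used. DN1270_c0_g1 had 80.1%, 94.3% and 92.5% of their joint counts in MCR1, MCR2 and MCR3, against 25.7%, 20.9% and 25.3% in TCR1, TCR2 and TCR3. The widest exact 95% interval of these shares ran from 24.0 to 26.6%, in TCR3, and covers counting error only. Their summed level was 1009 ± 152 CPM in MCR and 315 ± 70.6 CPM in TCR (SD, n = 3 each). Contigs of one component are similar in sequence, so Salmon may have divided reads between them, and how far the division is correct cannot be told from the counts.

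**Figure D4:**
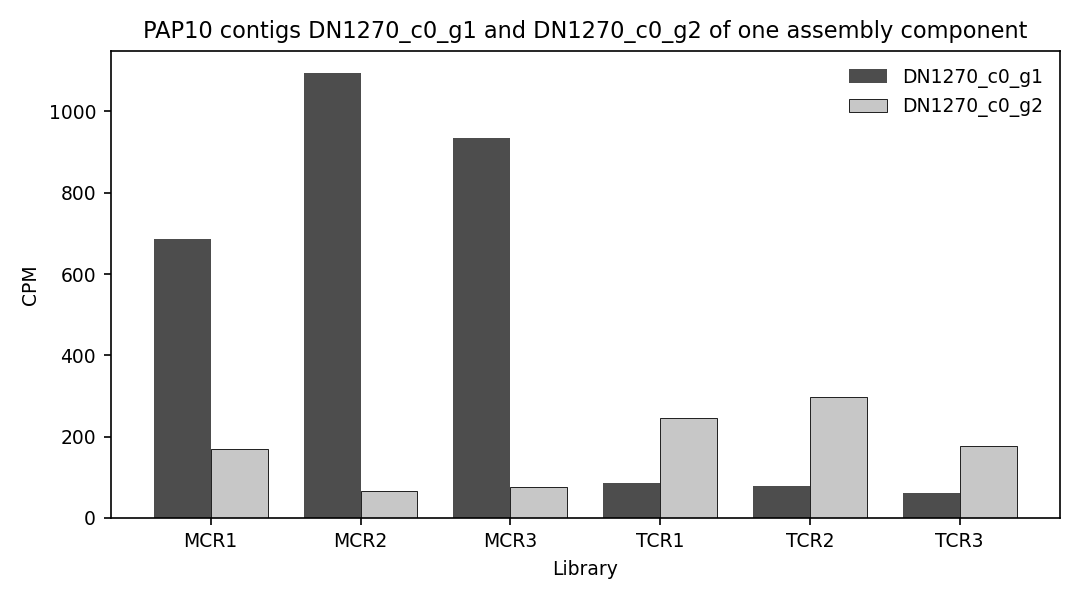
Level (CPM) of the PAP10 contigs DN1270_c0_g1 and DN1270_c0_g2 in each library, MCR on the left and TCR on the right. DN1270_c0_g1 is the taller bar in MCR (80.1 to 94.3% of the joint counts) and DN1270_c0_g2 in TCR, where DN1270_c0_g1 has 20.9 to 25.7%.

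In the other components with a pair of PAP10 contigs, DN6749_c0_g1 held most of the counts in both root types and DN6908_c0_g1 held most of them in MCR alone. DN6749_c0_g1 had 94.5%, 82.2% and 82.6% of the joint counts with DN6749_c0_g2 in MCR1, MCR2 and MCR3, and 84 of 85, 65 of 67 and 44 of 44 counts in TCR1, TCR2 and TCR3. DN6908_c0_g1 had 79.9%, 91.5% and 62.5% of the joint counts with DN6908_c0_g2 in MCR, and 0 of 9, 0 of 2 and 2 of 22 counts in TCR1, TCR2 and TCR3. The upper exact 95% limits of its share there were 33.6% in TCR1, 84.2% in TCR2 and 29.2% in TCR3. Reads may be divided in these components as well.

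The assembly clusters of the 6 contigs held 10 other contigs, which share the DN number and were taken by that number alone. Of these 8 passed the filter on low values, 5 were called higher in MCR and 0 lower (edgeR), where 2.4% of all contigs tested were called higher and 5.98% lower. At an unadjusted p below 0.05, 1 was lower, and DESeq2 called 0 lower. Only 2 were called higher without TCR1 or without TCR2, and 3 without TCR3 or without MCR2. DN1306_c0_g1 had no other contig in its cluster, and the one beside DN8582_c0_g1 had at most 5 counts in a library. Of the 8 contigs, 3 are the PAP10 contigs above, which the authors had selected on this contrast. The other 5 carry no annotation here, so nothing can be said of what they encode. Contigs of a cluster may also share reads with the 6, which were chosen as higher. These calls are therefore not independent evidence of a direction.

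DN3420_c1_g1, an unannotated contig in the cluster of DN3420_c0_g1, had 109, 389 and 434 CPM in MCR1, MCR2 and MCR3, and 3.51, 2.08 and 1.74 CPM in TCR1, TCR2 and TCR3 (log2 fold change 6.99, edgeR adjusted p = 0.00370). It was called under each of the 14 settings run, with a highest adjusted p of 0.0336. In the cluster of DN1270_c0_g1, the unannotated DN1270_c1_g2 had 25.5, 138 and 286 CPM in MCR and 1.36, 0.552 and 5.44 CPM in TCR (log2 fold change 5.92, adjusted p = 0.0280), and DN1270_c1_g1 had 6.79, 35.7 and 101 CPM in MCR and 0.787, 0.368 and 1.63 CPM in TCR (log2 fold change 5.67, adjusted p = 0.0242). Both rose in MCR, with MCR1 again the lowest MCR library, and both lost the call without some libraries: the highest adjusted p was 0.141 for DN1270_c1_g2 and 0.132 for DN1270_c1_g1, each without TCR1. DN1270_c2_g1 and DN3420_c3_g1, under 1 CPM in both root types, were not called (adjusted p = 0.0726 and 0.443, edgeR). With the replicate block DN1270_c2_g1 was called higher in MCR (adjusted p = 0.00461), as it was with DESeq2 (adjusted p = 0.00547).

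Over all 10 PAP10 contigs, the summed level was 6117, 9620 and 10224 CPM in MCR1, MCR2 and MCR3, and 761, 845 and 746 CPM in TCR1, TCR2 and TCR3, with a ratio of the means of 11.04. The 6 contigs held 85.1%, 78.6% and 70.5% of the PAP10 level in MCR1, MCR2 and MCR3, against 53.8%, 51.2% and 42.7% in TCR1, TCR2 and TCR3. Most of the remainder in TCR came from DN1270_c0_g2 and DN2175_c1_g1.

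The other annotated purple acid phosphatases, 26 contigs of other numbers, had been selected on the same contrast and are not independent evidence either. Members of the family that the authors did not select are not among these 26. Of these, 11 were called higher in MCR and 0 lower (edgeR), beside 10.2% higher and 31.7% lower among all annotated contigs tested. At an unadjusted p below 0.05, 1 was lower, and DESeq2 called 15 higher and 1 lower. The count called higher was 25 with the replicate block (which called 20.1% of all contigs higher and 15.4% lower), 4 without TCR1 and 4 without TCR2, and 18 without MCR3. Their median log2 fold change was 4.60, against 1.904 for all annotated contigs. It includes 11 contigs under 10 CPM that had no counts in MCR3 and TCR3 and were not called. The 6 PAP10 contigs were chosen as higher and are not set against this median.

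All 11 contigs called higher were among the 15 with a mean of 10 CPM or more in a root type. Of the 11, 4 were below 1 CPM in TCR, as was DN6908_c0_g1 among the 6 PAP10 contigs. DN2498_c0_g1, annotated PAP27, had 144, 561 and 445 CPM in MCR1, MCR2 and MCR3, and 0.0716, 0.490 and 0.490 CPM in TCR1, TCR2 and TCR3. DN10615_c0_g2, also PAP27, averaged 96.0 CPM in MCR and 0.183 CPM in TCR. DN4371_c0_g1 and DN4371_c0_g2, annotated PAP24, averaged 112 and 90.8 CPM in MCR, and had 3 and 2 counts in all of TCR. In all 4 contigs MCR1 was the lowest MCR library, as it was in the 6 PAP10 contigs.

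Others, like DN1306_c0_g1, were clearly present in TCR and still higher in MCR. DN417_c0_g1 (PAP27) averaged 1454 CPM in MCR and 355 CPM in TCR, and DN667_c2_g1 (PAP27) averaged 518 CPM in MCR and 72.1 CPM in TCR. DN667_c2_g2 (PAP27) averaged 51.8 CPM in MCR and 12.7 CPM in TCR. DN4371_c0_g3 (PAP24) averaged 872 CPM in MCR and 197 CPM in TCR, and DN4738_c0_g1 (PAP20) averaged 161 CPM in MCR and 35.1 CPM in TCR. These contigs rose in MCR without being near 0 in TCR. DN1730_c0_g1, annotated only to the superfamily, averaged 493 CPM in MCR and 9.08 CPM in TCR, and DN19657_c0_g1, annotated PAP1 and PAP12, averaged 72.2 CPM in MCR and 1.60 CPM in TCR. The fitted log2 fold changes of these 7 contigs lay between 2.03 and 5.76, the adjusted p between 0.00683 and 0.0394 (edgeR).

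Of the remaining contigs at 10 CPM or more, DN74_c0_g1 (superfamily) had a log2 fold change of 2.08 and an adjusted p of 0.0570, DN1335_c2_g1 (PAP22) 1.56 and 0.187, and DN13987_c0_g1 (PAP20) 3.49 and 0.207 in the edgeR test. DN13987_c0_g1 was nearly absent from MCR3 and TCR3, with 17.4, 20.0 and 0.122 CPM in MCR1, MCR2 and MCR3, and 1.86, 1.41 and 0.0544 CPM in TCR1, TCR2 and TCR3. DN27500_c0_g2, annotated PAP17, had the only fitted value below 0, with 1.56, 6.05 and 8.45 CPM in MCR1, MCR2 and MCR3, and 22.2, 29.3 and 21.1 CPM in TCR1, TCR2 and TCR3 (log2 fold change -2.17, edgeR adjusted p = 0.0750). In Arabidopsis, PAP17 is another phosphatase that is induced by phosphate starvation. None of the 11 contigs under 10 CPM was called, and all 11 had no counts in MCR3 and TCR3, whereas each of the 6 PAP10 contigs had counts in both.

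**Figure D5:**
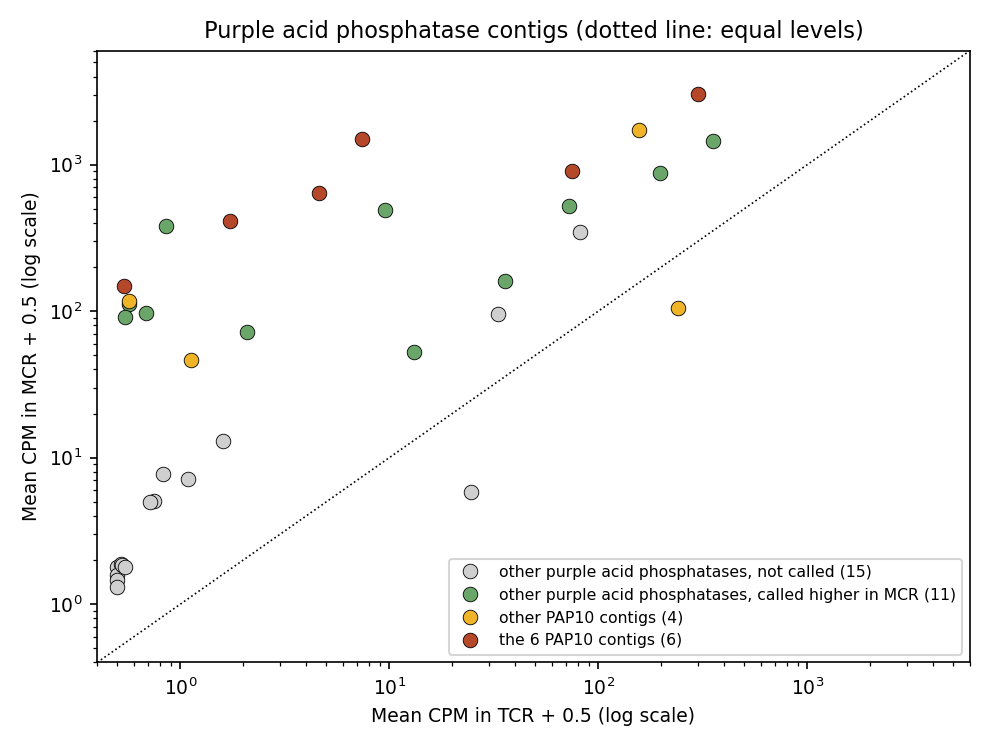
Mean level in MCR (y axis) against mean level in TCR (x axis) of the 36 annotated purple acid phosphatase contigs, in CPM with 0.5 added on log axes, and the line of equal levels dotted. The 6 PAP10 contigs lie far above the line, from DN6908_c0_g1 at the left to DN1306_c0_g1 at the upper right, and DN1270_c0_g2 and the PAP17 contig DN27500_c0_g2 lie below it.

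Other annotated genes of phosphate nutrition had also been selected on this contrast, and their counts stand beside 10.2% called higher and 31.7% called lower among all annotated contigs (edgeR). Of 22 contigs annotated as PHT1 phosphate transporters, the carriers that take up phosphate at the root surface, 5 were called higher in MCR and 0 lower. Most of the 17 not called had few or no counts in MCR3 and TCR3. DN16870_c0_g1, for example, had 2082, 3103 and 6 counts in MCR1, MCR2 and MCR3. SPX-domain proteins, some of them sensors of the phosphate status of the cell, had 1 called higher and 2 lower of 6 contigs. Of the 2 called lower, DN3220_c0_g1 is annotated as a Major Facilitator Superfamily protein with an SPX domain. Of 5 acid phosphatases outside the purple family 1 was called higher and 0 lower. Of 7 contigs annotated ribonuclease 1 or 2, enzymes that cut RNA, 1 was called higher and 0 lower. The 6 ribonuclease contigs not called had 0 counts in MCR3 and TCR3. The 6 PAP10 contigs were chosen as higher and cannot be set against these numbers of calls.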

How the data were processed

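RNA-Seq counts from 3 MCR and 3 TCR libraries were used. Per the submitters' processing notes and the study's methods, reads were trimmed with Trimmomatic 0.39, assembled with Trinity and quantified with Salmon 1.9.0. The deposited estimated counts are not normalized and give each contig 1 value in each library. The libraries were prepared with a directional kit from poly(A) RNA. Whether counting used the strand and how transcripts were summed to contigs are not given in the sources used here. The deposited table of annotated contigs holds CPM values normalized by the authors (edgeR 4.0.14), with 0.01 added, and its columns of fold changes, p-values and q-values are the authors' own comparison. Its annotation was used, and its CPM values served only as an alternative for the folds, sums and shares of the 6 contigs.

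The estimated counts were rounded to whole numbers. A mean of at least 0.4 CPM in 1 root type was required, which kept 49813 of 183999 contigs, and MCR was compared with TCR by the edgeR 4.0.16 quasi-likelihood test in R 4.3.3 (TMM normalization, Benjamini-Hochberg adjustment over all contigs tested, calls at an adjusted p under 0.05 with a log2 fold change of at least 1 in either direction). CPM values are TMM-normalized. Intervals are exact (Clopper-Pearson, 95%) and cover counting error only. Salmon divides reads among similar contigs, so values of contigs in one component are uncertain beyond these intervals. Tables were handled with pandas 2.3.3 and scipy 1.17.1 in Python 3.11.15. The fit was run on simulated counts with known changes as a check of the code. Those counts varied less than these libraries and shared no deviation by replicate number. The check therefore says nothing of the error rate of the calls here.

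The members and gene lists were chosen with earlier results of these data known. The contigs named are the 6, the other contigs annotated PAP10, other purple acid phosphatases with a mean of 10 CPM or more in a root type, contigs of the same assembly clusters with 1 CPM or more, and for each of the 6 the 3 annotated contigs with the most similar profile. DN1270_c2_g1 and DN3420_c3_g1 lie outside this rule and were named after their values were seen, as were single contigs of the cell type markers. Libraries with the same replicate number deviated together from their root type means: in 14706 contigs whose mean exceeded 5 CPM, the correlation across contigs was 0.336 for MCR1 with TCR1, 0.363 for MCR2 with TCR2 and 0.477 for MCR3 with TCR3. It was also 0.316 for MCR1 with TCR2 and 0.185 for MCR2 with TCR1. Between replicate 3 of a root type and the other numbers of the other type it was negative, from -0.502 (MCR3 with TCR2) to -0.295 (MCR2 with TCR3). Only the numbers in the titles give the pairing by replicate number, and a fit with the number as a block was run as an alternative. The other alternatives were RLE size factors, library size alone, every contig with a read, the CPM minimum in 3 libraries, a prior count of 2, the CPM values of the authors, DESeq2 1.42.0 and each library left out in turn.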

Additional observations from a re-analysis of the deposited data

How the results depend on the processing

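The 6 PAP10 contigs, chosen on this contrast, were higher in MCR under each alternative run. With the CPM values of the authors the log2 ratio of DN1306_c0_g1 was 3.24 and that of DN3420_c0_g1 was 7.63. With the replicate block the log2 fold changes were 3.36 for DN1306_c0_g1, 7.72 for DN3420_c0_g1, 3.59 for DN1270_c0_g1, 7.29 for DN6749_c0_g1, 8.46 for DN8582_c0_g1 and 11.64 for DN6908_c0_g1. The log2 fold change of DN1306_c0_g1 was 3.65 with RLE size factors and with DESeq2, 3.17 with library size alone, 3.66 with the CPM minimum in 3 libraries and 3.23 to 3.65 when single libraries were left out. That of DN1270_c0_g1 was 3.91 with the CPM minimum in 3 libraries and 3.49 to 4.04 when single libraries were left out, that of DN3420_c0_g1 7.60 to 8.28, and that of DN6908_c0_g1 9.81 with a prior count of 2 and 11.08 to 14.17 with single libraries left out. The summed log2 ratio was 4.10, and 4.41 with RLE size factors. The cause of these shifts was not tested beyond the shift of the median given above.

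Over all contigs 4177 were called, 9240 with all contigs that had reads, 9187 with DESeq2, 17704 with the replicate block and 535 to 7460 with single libraries left out (2593 without MCR1, 2426 without MCR2, 7460 without MCR3, 535 without TCR1 and 651 without TCR2). Other purple acid phosphatases called higher in MCR numbered 11, 25 with all contigs that had reads, 25 with the replicate block and 4 to 18 with single libraries left out. Those called lower numbered 0, and 1 with library size alone, with all contigs that had reads, with DESeq2 and with the replicate block, and 0 to 1 with single libraries left out. Of the contigs in the same clusters, 2 to 5 were called higher with single libraries left out, and 1 was called lower with all contigs that had reads and with the replicate block, and 0 to 1 with single libraries left out. A share below a few counts, as for DN6908_c0_g1 in TCR, is limited by depth.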
